A study of Mus musculus with 6 samples.

Results

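The immunoglobulin heavy chain variable segments, Ighv, were examined in ovarian RNA of mice of high and low litter size. The 94 segments were those whose symbol begins with Ighv and whose estimated counts summed to at least 15 over all 6 libraries, out of 185 Ighv genes in the deposited table of 36727 genes. The summed counts over both groups therefore chose the segments. The members just inside this limit were Ighv1-83 (16 counts), Ighv1-56 (17) and Ighv7-4 (17), and Ighv1-2, Ighv1-20 and Ighv12-2, each at 14, lay just outside it. The high litter size group was replicates 1, 3 and 4 and the low litter size group replicates 1, 2 and 5, with 3 libraries each. All 6 were ovary of female F4 inbred Swiss albino mice, aged 135 to 140 days and described as estrous-phased, and litter size was the only labelled difference. Libraries were made from polyadenylated RNA. The labels do not say that the samples came from separate animals, so p-values reflect the variation among these samples, and that variation may be technical.

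An antibody heavy chain is encoded by a gene that a B lymphocyte assembles by joining a variable, a diversity and a joining segment, and the variable segment supplies most of the antigen-binding domain. Each B cell clone uses a single productive heavy chain rearrangement, so reads of different Ighv segments come largely from different clones, whereas the constant region (Ighm for IgM, Igha for IgA, Ighg for IgG) sets the class of antibody. Plasma cells, the antibody-secreting end stage of the lineage, hold far more heavy chain mRNA than other B cells, and at mucosal surfaces many of them make IgA. The mouse Ighv segments lie in a single cluster, numbered by subfamily and position, with the constant regions beyond its low-coordinate end on the assembly used here.

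All 94 members lie on the minus strand of chromosome 12 between 113578504 and 116000461 (GRCm38, GENCODE M21), and they belong to 13 of the 16 subfamilies in the table. Of them 89 are annotated as variable segment genes and 5 as pseudogenes (Ighv4-2, Ighv3-2, Ighv1-14, Ighv1-21 and Ighv1-83). Their transcripts are short, 347 to 480 bases with a median of 354.5. Ighv1-9, the segment on which the test below turned, is printed with Ighv1-77 and Ighv1-63, its closest ungapped relatives, because reads of such relatives could be shared. The mature variable region is given 5′ to 3′ from the GENCODE M21 transcripts, for Ighv1-9 at chr12:114583569-114583862, for Ighv1-77 at chr12:115861867-115862160 and for Ighv1-63 at chr12:115495625-115495918, all on the minus strand of GRCm38. Capitals mark the bases at which a relative differs from Ighv1-9.
Ighv1-9: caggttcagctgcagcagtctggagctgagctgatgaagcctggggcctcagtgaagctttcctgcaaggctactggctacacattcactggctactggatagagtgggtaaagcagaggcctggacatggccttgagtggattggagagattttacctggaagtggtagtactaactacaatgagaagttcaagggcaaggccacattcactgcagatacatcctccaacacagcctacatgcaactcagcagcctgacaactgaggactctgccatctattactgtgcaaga
Ighv1-77: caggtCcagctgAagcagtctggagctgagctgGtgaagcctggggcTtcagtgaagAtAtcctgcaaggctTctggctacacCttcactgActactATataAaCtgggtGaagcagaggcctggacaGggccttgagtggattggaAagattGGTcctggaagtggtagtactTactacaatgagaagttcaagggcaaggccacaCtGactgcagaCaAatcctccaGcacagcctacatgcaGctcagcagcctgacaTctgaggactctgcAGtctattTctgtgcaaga
Ighv1-63: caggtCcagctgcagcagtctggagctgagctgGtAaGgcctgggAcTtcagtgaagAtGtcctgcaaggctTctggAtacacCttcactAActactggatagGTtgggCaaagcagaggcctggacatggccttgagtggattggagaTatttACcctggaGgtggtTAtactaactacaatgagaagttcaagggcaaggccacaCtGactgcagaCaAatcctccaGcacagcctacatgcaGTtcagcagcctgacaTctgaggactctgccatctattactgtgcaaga
Each relative differed from Ighv1-9 at 30 of these 294 bases. In Ighv1-77 the differences were spread evenly, 10 in each of 3 equal parts of the stretch, and in Ighv1-63 the first part held 13, the middle 9 and the last 8. Of the 31-base words of the Ighv1-9 transcript, 78.0% occurred in the transcript of no other gene. Over the 94 members this unique share ran from 1.91% to 100% with a median of 55.1%, and Ighv1-72 (1.91%), Ighv1-71 (2.43%) and Ighv1-62-2 (7.76%) were the least distinct of those examined. How reads are divided among such segments is uncertain, and the reference is the C57BL/6J assembly, while the mice were Swiss albino.

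Total estimated counts were 18038084 to 19123306 in the high libraries, against 17620903 to 24758222 in the low libraries. Ovarian markers were not uniform. Inha, which encodes a subunit of the granulosa cell hormone inhibin, was at 1.64, 2.12 and 199 CPM in high replicates 1, 3 and 4, against 182, 1.23 and 110 CPM in low replicates 1, 2 and 5, where CPM is a count divided by the TMM-normalized library size and multiplied by 1000000. Fshr, the follicle-stimulating hormone receptor, was at 0, 0 and 3.97 CPM in the high libraries, against 1.50, 0.0533 and 2.61 CPM in the low libraries. Of 6 granulosa genes, Inha, Amh, Fshr and Hsd17b1 were at no more than 2.12 CPM in high replicates 1 and 3 and low replicate 2. The other granulosa genes were present there, Foxl2 at 21.4 and 10.3 CPM in the high libraries, against 21.6 CPM in the low library, and Inhbb at 47.0 and 60.8 CPM in the high libraries, against 629 CPM in the low library. These 3 libraries are called Inha-low and the other 3, with Inha above 10 CPM, Inha-expressing. Summed levels of 5 luteal and steroidogenic genes were 44.5 and 70.2 CPM in the Inha-low high libraries, against 36.7 CPM in the low one. In the Inha-expressing libraries they were 9181 CPM in high replicate 4, against 705 and 3015 CPM in low replicates 1 and 5. Summed oocyte genes were at most 2.56 CPM in the Inha-low libraries and at least 7.45 CPM in the Inha-expressing ones. Whether the Inha-low libraries held granulosa cells was not tested. The summed Ighv level, Ighv1-9, the effective number of segments, the ratio to constant regions and the share of the nearest stretch are also given within each set.

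Heavy chain variable RNA had lower levels in high litter size libraries. The 94 members summed to 2579, 1140 and 528 counts in high replicates 1, 3 and 4, against 5047, 5008 and 8762 counts in low replicates 1, 2 and 5. As a level, this was 132, 71.2 and 26.5 CPM in the high libraries, against 292, 267 and 342 CPM in the low libraries, so every high library lay below every low library. The means were 76.5 ± 52.8 CPM in the high group, against 300.0 ± 38.0 CPM in the low group (SD, n = 3 each), a level 3.92-fold lower in the high group (-1.97 on the log2 scale). The high libraries spread over a wider range than the low ones, and without high replicate 1 the level was 6.14-fold lower in the high group. No p is given for a sum over members chosen on these data. In bulk RNA, fewer cells of a type and less RNA per cell cannot be told apart. How well the reads of each group match the C57BL/6J reference segments was not tested either.

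The order was the same within each set of libraries. Among the 3 Inha-expressing libraries, the summed level was 26.5 CPM in high replicate 4, against 292 and 342 CPM in low replicates 1 and 5, 11.9-fold lower in the high library. Among the 3 Inha-low libraries it was 132 and 71.2 CPM in high replicates 1 and 3, against 267 CPM in low replicate 2, 2.63-fold lower in the high libraries. A group in each set was a single library, and the difference between the sets was not tested.

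**Figure D1:**
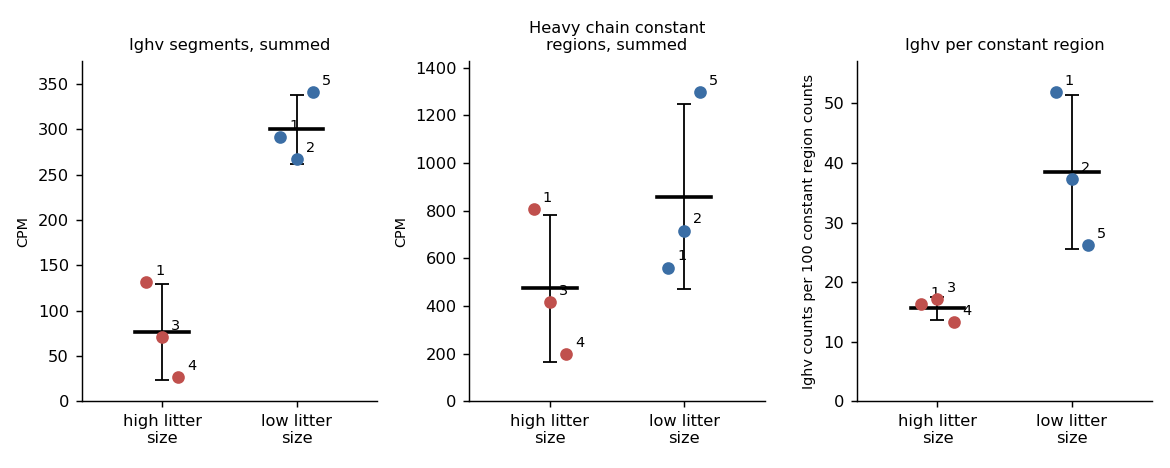
Left, the summed level of the 94 Ighv segments (CPM), centre, the summed level of 8 heavy chain constant regions (CPM), and right, Ighv counts per 100 constant region counts, with a point per library numbered by replicate, high litter size left of low, and mean ± SD. The Ighv level and the ratio do not overlap between groups, whereas the constant region level does.

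Most single segments had lower values in the high group. The mean level was lower in the high group for 73 members and higher for 21. In 39 of the 94 members (41.5%) every high library lay below every low library, against 9.85% of the 19544 genes with a count sum of at least 15. The opposite held for 1 member, Ighv7-2, and for 8.29% of those genes. Ighv7-2 had 15, 1 and 1 counts in high replicates 1, 3 and 4, against 0, 0 and 1 in low replicates 1, 2 and 5. The groups overlapped in the other 54 members. The limit on the summed count bears on these numbers. Some of the 39 passed it only through their low libraries, such as Ighv1-9 (5 counts in the high group, against 818 in the low) and Ighv1-36 (1 against 73). Ighv7-2 passed it only through its high libraries (17 counts, against 1 in the low). In a quasi-likelihood fit by edgeR over the 19544 genes, the median log2 fold change of the 94 members was -2.12, and that of all genes was 0.08. The members' fold changes ran from -7.86 to 4.82 and were negative in 73 of 94, against 44.5% of all genes. In that fit 38 members were lower in the high group at an unadjusted p under 0.05, against 7.07% of genes, and 1 was higher, against 6%, and the adjusted test called 1 member (background 0.00512%).

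The difference of a single segment passed the test adjusted over all genes. The filter on low counts kept 60 of the 94 members among 16455 tested genes and dropped 34. By edgeR's quasi-likelihood test 1 member, Ighv1-9, passed an adjusted p of 0.05, and it was also the single gene of the whole table to do so, a background of 0.00608%. At an unadjusted p under 0.05, 24 of the 60 tested members were lower in the high group, against 7.82% of tested genes, and 0 were higher, against 6.56%. DESeq2, which gave an adjusted p to 52 of them, called 16 lower, against 4.3% of genes, and 0 higher, against 2.26%. The median standard error of a member's log2 fold change was 1.12 among the 60.

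**Figure D2:**
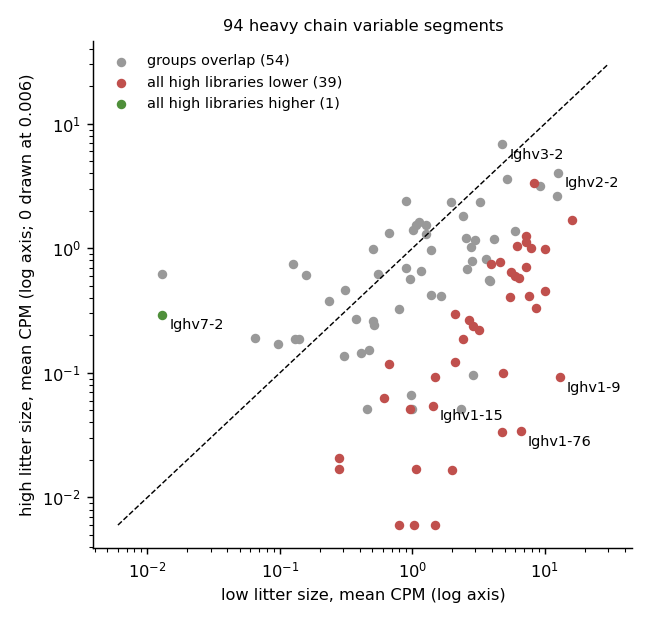
Mean level of each of the 94 segments in the high group (vertical, CPM) against the low group (horizontal, CPM), both on log axes with segments at 0 in all high libraries drawn at 0.006. The 39 red points, lower in all high libraries, lie below the dashed line of equal levels, and Ighv7-2 in green is higher in all high libraries.

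Ighv1-9 (ENSMUSG00000094694, chromosome 12 from 114583569 to 114584002) had 1, 2 and 2 counts in high replicates 1, 3 and 4, against 199, 237 and 382 counts in low replicates 1, 2 and 5. It was all but absent from the high libraries, although these held 528 to 2579 counts of the members, and by summed counts it was the fourth of the 94. It stood at 0.0922 ± 0.0376 CPM in the high group, against 13.0 ± 1.73 CPM in the low group (SD, n = 3 each). It fell in the high group (log2 fold change -7.06, SE 0.46, edgeR adjusted p = 0.031), in 3 of 3 libraries. With counting error alone, the level was 147-fold lower in the high group (95% interval 62.7 to 454). Leaving out any single library kept the log2 fold change between -7.31 and -6.79, and the adjusted p then ran from 0.0839 to 0.381, so the call was lost each time. Within the 3 Inha-expressing libraries it was -6.98 (edgeR adjusted p = 0.444), and within the 3 Inha-low libraries -7.12 (edgeR adjusted p = 0.331). An arm of each of these fits was a single library, assumed to vary like the pair in the other arm.

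The neighbours and relatives of Ighv1-9 did not share its counts in full. Ighv1-7, the next member towards the constant regions, had 11, 6 and 1 counts in high replicates 1, 3 and 4, against 231, 89 and 193 in low replicates 1, 2 and 5, without overlap (log2 fold change -4.68, SE 0.85, edgeR adjusted p = 0.161, and -5.36 without high replicate 1). Ighv1-11, the next member on the other side, had 0, 16 and 5 counts in the high libraries, against 2, 6 and 116 in the low libraries, which overlapped, and it did not pass the filter. Ighv1-77, 90.9% identical to Ighv1-9 and shown above, had 20, 11 and 3 counts in the high libraries, against 12, 16 and 3 in the low libraries (log2 fold change 0.18, SE 0.91, edgeR adjusted p = 0.945). Ighv1-63, 90.3% identical, had 13, 2 and 0 counts in the high libraries, against 5, 6 and 23 in the low libraries and was not tested. The next closest, Ighv1-62-1, also 90.3% identical, had 7 counts in all and was no member. In neither relative printed above were the 2 groups apart as they were in Ighv1-9.

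Among the 16455 tested genes, likeness to the pattern of Ighv1-9 was ranked by Pearson's r of log2(CPM + 0.5) over the 6 libraries. The most alike were Ighv1-15 (r = 0.999), Mastl (0.998), Krt81 (0.995), Eny2 (0.994) and Ctc1 (0.992). These values describe 6 points in 2 groups and carry no p. Ighv1-15, 1 of the 94, had 1 count in each high library and 22, 28 and 39 counts in low replicates 1, 2 and 5 (edgeR log2 fold change -4.57, SE 0.51, adjusted p = 0.14).

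Of the tested members with groups apart, 3 others had the smallest p after Ighv1-9 and Ighv1-15. Ighv1-81, near the far end of the cluster, had 13, 7 and 5 counts in high replicates 1, 3 and 4, against 267, 87 and 259 in low replicates 1, 2 and 5 (edgeR log2 fold change -4.46, SE 0.64, adjusted p = 0.14). Ighv1-64 had 10, 9 and 3 counts in the high libraries, against 88, 96 and 162 in the low libraries (-3.74, SE 0.57, edgeR adjusted p = 0.14). Ighv1-76 had 2, 0 and 0 counts in the high libraries, against 221, 47 and 114 in the low libraries (-7.29, SE 1.21, edgeR adjusted p = 0.146, and -6.39 without low replicate 1). None of these, nor Ighv1-15, passed the edgeR test. All 4 belong with Ighv1-9 to the Ighv1 subfamily, which held 31 of the 60 tested members. DESeq2 called Ighv1-81, Ighv1-64 and Ighv1-76, with adjusted p-values of 5.07e-09, 7.24e-09 and 3.22e-06, and it called Ighv1-9 at 7.51e-19. In all, 3 members had no count in any high library, namely Ighv2-5, Ighv1-61 and Ighv1-75, and 0 members were without a count in the low libraries. The limit on the summed count bears on this, since these 3 passed it through their low libraries alone. Ighv12-2, just outside the limit, had 12, 0 and 2 counts in high replicates 1, 3 and 4 and 0 in each low library.

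**Figure D3:**
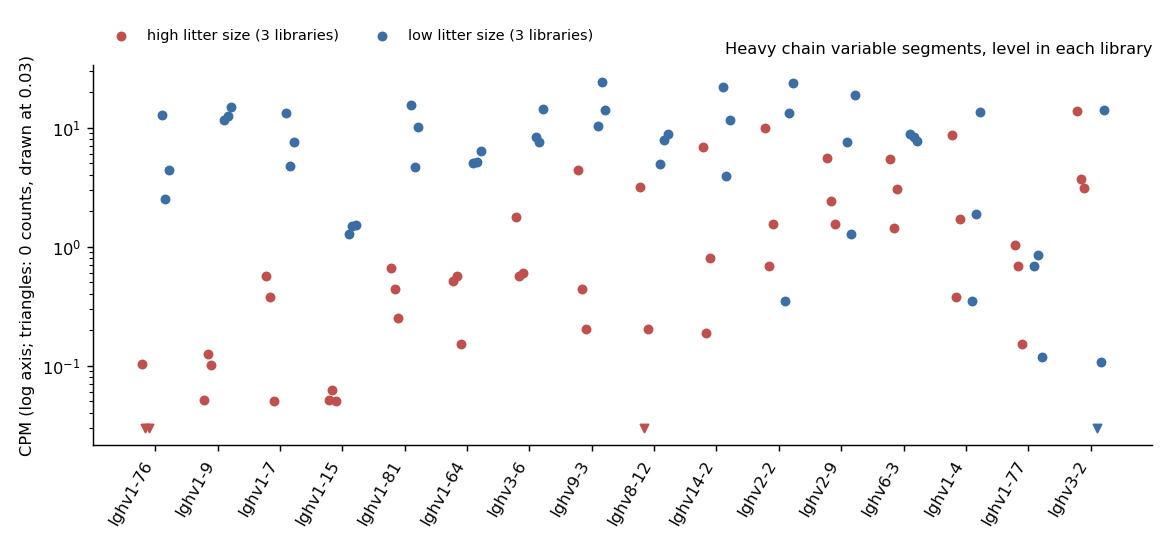
Level of 16 segments in each library (CPM, log axis, not per length), with the high libraries in red left of the low libraries in blue, and triangles for 0 counts. The red points of Ighv1-9 lie below its blue points by more than 1 log10 unit, whereas those of Ighv2-2, Ighv3-2 and Ighv1-4 are intermingled.

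Among the members of largest summed count, whose transcripts are of similar length, values were not uniformly lower in the high group. Ighv2-2, with the largest summed count, had 193, 11 and 31 counts in high replicates 1, 3 and 4, against 6, 248 and 614 in low replicates 1, 2 and 5 (edgeR log2 fold change -1.63, SE 1.42, adjusted p = 0.644). Ighv9-3 had 87, 7 and 4 counts in the high libraries, against 178, 452 and 362 in the low libraries (-3.24, SE 1.11, edgeR adjusted p = 0.298). Ighv14-2 had 135, 3 and 16 counts in the high libraries, against 377, 73 and 298 in the low libraries (-2.23, SE 1.23, edgeR adjusted p = 0.46). Of these only Ighv9-3 had groups that did not overlap, and Ighv2-2 was lowest in a low library. Without high replicate 1 the log2 fold changes of Ighv2-2, Ighv9-3 and Ighv14-2 were -3.47, -5.68 and -4.60, without low replicate 5 that of Ighv2-2 was -0.75, and without low replicate 1 that of Ighv14-2 was -1.55.

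Ighv3-6 had 35, 9 and 12 counts in high replicates 1, 3 and 4, against 144, 141 and 367 in low replicates 1, 2 and 5 (edgeR log2 fold change -3.34, SE 0.61, adjusted p = 0.161). Ighv6-3 had 107, 23 and 61 counts in the high libraries, against 152, 158 and 199 in the low libraries (-1.32, SE 0.51, edgeR adjusted p = 0.327). Ighv8-12 had 62, 0 and 4 counts in the high libraries, against 85, 147 and 226 in the low libraries (-2.66, SE 1.36, edgeR adjusted p = 0.427). All 3 were without overlap, and Ighv6-3 had the most even low libraries of the abundant segments, at 8.32 ± 0.520 CPM (SD, n = 3). Without high replicate 1 the log2 fold changes of Ighv3-6 and Ighv8-12 were -4.11 and -5.99.

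Ighv2-9 had 109, 39 and 31 counts in high replicates 1, 3 and 4, against 131, 24 and 479 in low replicates 1, 2 and 5 (edgeR log2 fold change -1.52, SE 0.94, adjusted p = 0.509). Ighv1-4 had 170, 6 and 34 counts in the high libraries, against 6, 35 and 346 in the low libraries (-0.55, SE 1.43, edgeR adjusted p = 0.891). Ighv3-2, annotated as a pseudogene in the reference, had 268, 59 and 62 counts in the high libraries, against 0, 2 and 363 in the low libraries (0.51, SE 1.78, edgeR adjusted p = 0.918). In these 3 the spread within a group exceeded the difference between groups. The sign of the Ighv3-2 value rested on single libraries, being -0.52 without high replicate 1 and 6.80 without low replicate 5, and that of Ighv1-4 turned to 1.69 without low replicate 5. The value of Ighv2-9 was -2.23 without high replicate 1 and -0.47 without low replicate 5.

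Each library had its own leading segments. Ighv3-2 led high replicate 1 with 268 of 2579 counts (10.4%, exact Clopper-Pearson 95% interval 9.24 to 11.6%) and high replicate 4 with 62 of 528 (11.7%, 9.12 to 14.8%). Ighv1-71 led high replicate 3 with 92 of 1140 counts (8.07%, 6.56 to 9.81%), although its sequence is among the least distinct. Ighv14-2 led low replicate 1 (377 counts, 7.47%, 6.76 to 8.23%), Ighv9-3 led low replicate 2 (452, 9.03%, 8.25 to 9.85%) and Ighv2-2 led low replicate 5 (614, 7.01%, 6.48 to 7.56%). These intervals cover counting error only. No segment led a library of both groups, and in none of the 6 did a single segment exceed 11.7% of the Ighv counts. The 5 most abundant segments together held 34.1, 30.4 and 42.4% in high replicates 1, 3 and 4, against 26.7, 29.6 and 25.2% in low replicates 1, 2 and 5, a larger share in every high library.

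The number of segments in use was smaller in the high libraries, which also held fewer Ighv counts. At least 1 count was found for 78, 65 and 61 members in high replicates 1, 3 and 4, against 84, 88 and 93 in low replicates 1, 2 and 5, and 37 members had a count in all 6 libraries. The effective number of segments, the number of equally used segments with the same Shannon entropy, was 39.4, 37.1 and 29.1 in the high libraries, against 44.8, 46.1 and 49.0 in the low libraries. Its mean was 35.2 ± 5.38 in the high group, against 46.6 ± 2.12 in the low group (SD, n = 3 each), without overlap, a difference of -11.5 segments. Within the Inha-expressing libraries it was 29.1 in the high library, against 44.8 and 49.0 in the low ones, and within the other set 39.4 and 37.1 in the high libraries, against 46.1 in the low one. Reduced to a common 528 counts, the segments expected were 65.0, 57.8 and 61.0 in the high libraries, against 64.9, 70.8 and 71.0 in the low libraries, and the groups then overlapped.

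The high libraries resembled each other less evenly than the low libraries did. Across the 94 members, Spearman's rho of counts was 0.111 to 0.700 between high libraries, 0.502 to 0.651 between low libraries and 0.132 to 0.378 between libraries of different groups. The share of Ighv counts that 2 libraries held in common, summing the smaller of their shares segment by segment, was 29.7 to 67.0% between high libraries, 56.7 to 60.3% between low libraries and 34.7 to 55.4% across groups. The highest of these values joined high replicates 1 and 4, and the lowest involved high replicate 3. These correlations run over segments of the same 6 libraries and are descriptions.

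The summed level was lower in every high library than in every low library for 7 of the 13 subfamilies. The largest, Ighv1, held 46 members and 43.3% of the Ighv counts, and its level was 46.4, 28.4 and 8.80 CPM in high replicates 1, 3 and 4, against 146, 94.2 and 162 CPM in low replicates 1, 2 and 5, 4.82-fold lower in the high group. In 21 of its 46 members every high library lay below every low library, against 9.85% of genes with a count sum of at least 15. Summed levels were also lower without overlap for Ighv14 (5.53-fold), Ighv9 (4.99-fold), Ighv8 (4.95-fold), Ighv4 (4.56-fold), Ighv5 (4.39-fold) and Ighv6 (3.75-fold). For Ighv2 (2.85-fold), Ighv3 (2.49-fold) and Ighv7 (1.81-fold) the mean was lower in the high group and the libraries overlapped, and they also overlapped for Ighv10, Ighv11 and Ighv13. As a share of a library's Ighv counts no subfamily separated the groups. Ighv1 made up 35.2, 39.9 and 33.1% in the high libraries, against 50.2, 35.3 and 47.4% in the low libraries.

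Ighv11 stood apart in a single library. This small subfamily is known in mice for B-1 cell antibodies against phosphatidylcholine. It made up 0.0388, 9.39 and 0% of the Ighv counts in high replicates 1, 3 and 4, against 0.218, 0.319 and 0.559% in low replicates 1, 2 and 5. Of the 107 counts in high replicate 3, 78 were Ighv11-2 and 29 Ighv11-1. The same library had the highest level of Ighm, given below. It also had the highest summed adipocyte and red cell markers, at 21291 and 2342 CPM. No marker of B-1 cells was examined, and the cells behind these counts were not tested.

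**Figure D4:**
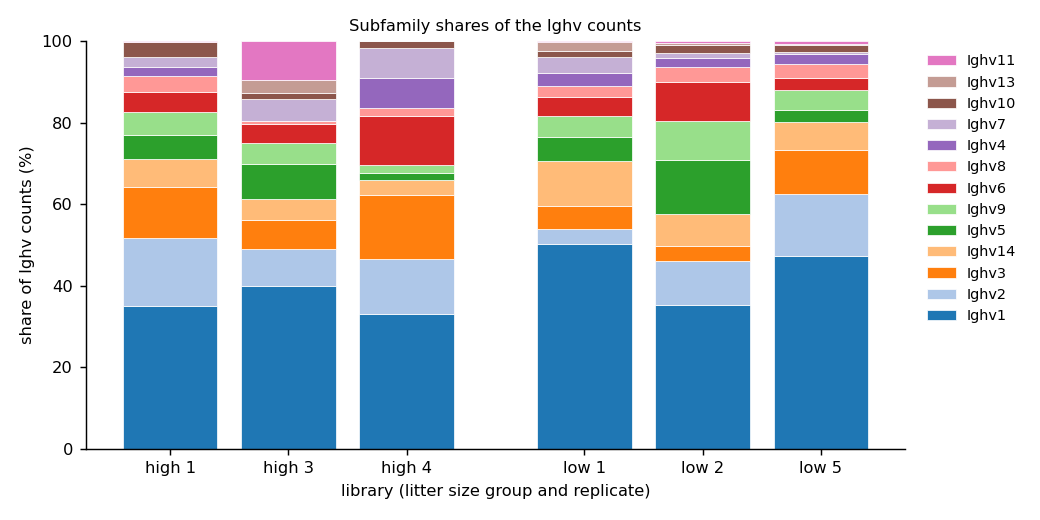
Share of the Ighv counts (percent) held by each of 13 subfamilies, in a stacked bar per library, with the 3 high libraries left of the 3 low ones. Ighv1 is the largest share in every library, and Ighv11 is visible in high replicate 3 with 9.39%.

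Along the cluster, levels were lower in the high group in every 500 kb stretch. Counted from the end near the constant regions, the 5 stretches held 28, 18, 17, 14 and 17 members, and the level was 2.94, 4.08, 6.45, 5.07 and 4.32-fold lower in the high group, without overlap in any of them. Members whose groups did not overlap, lower in high, numbered 8, 9, 7, 9 and 6, against 9.85% of genes with a count sum of at least 15. Ighv1-9 opens the third stretch and is counted in it. That stretch showed the widest difference, and Ighv1-9 alone was 147-fold lower in the high group. The stretch was at a mean of 6.22 CPM in the high group, against 40.1 CPM in the low group. Ighv1-9 gave 0.0922 CPM of this in the high group, against 13.0 CPM in the low group. Without this segment the third stretch would no longer show the widest difference. The log2 fold change of single members had a Spearman's rho of -0.131 with position over the 94, a description of segments that share their libraries.

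The stretch nearest the constant regions took a larger share of Ighv counts in the high group. It held 43.8, 37.3 and 44.1% in high replicates 1, 3 and 4, against 27.3, 33.2 and 33.4% in low replicates 1, 2 and 5. The mean share was 41.7 ± 3.86% in the high group, against 31.3 ± 3.48% in the low group (SD, n = 3 each), without overlap and 10.5 percentage points apart. Without the pseudogene Ighv3-2, which lies there, it was 37.3, 33.9 and 36.7% in the high libraries, against 27.3, 33.2 and 30.5% in the low libraries, 5.63 points apart and still without overlap. With all members, the share within the Inha-expressing libraries was 44.1% in the high library, against 27.3 and 33.4% in the low ones, and within the Inha-low libraries 43.8 and 37.3% in the high libraries, against 33.2% in the low one. These stretches differ in subfamily, since the nearest held no Ighv1 segment and the third to the fifth held only Ighv1 and Ighv8.

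**Figure D5:**
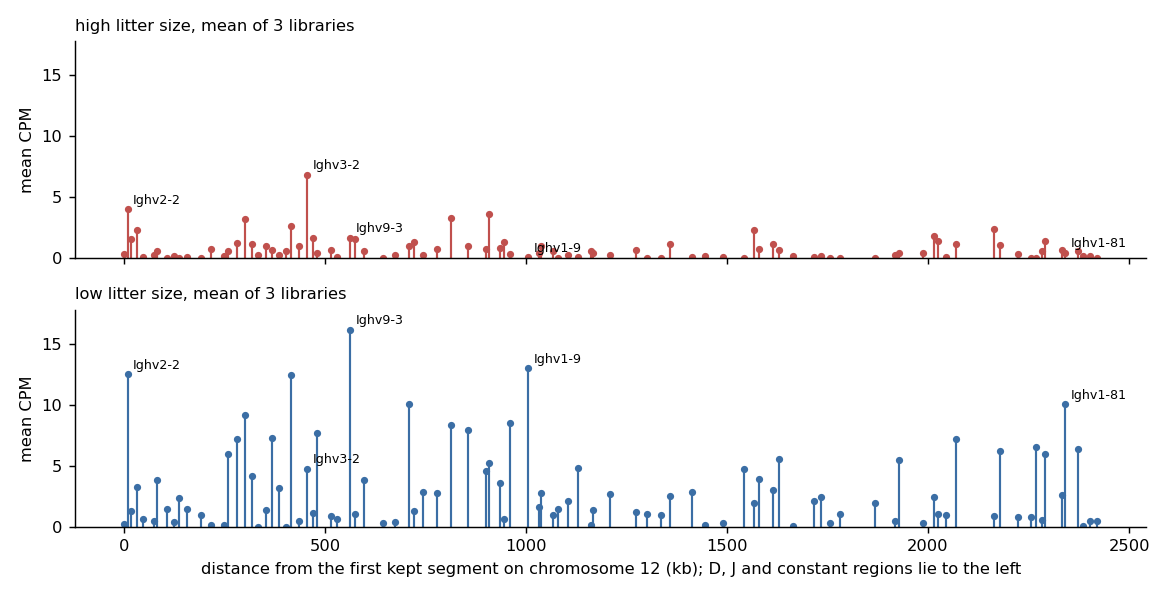
Mean level of each member (CPM, not per length) against its distance from the first segment (kb), for the high group above and the low group below on the same scale. Most stems are shorter in the high group along the whole cluster, with Ighv1-9 at 1005 kb near 0 in the high group, and Ighv3-2 is taller in the high group.

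The constant regions did not show the same separation. Summed over Ighm, Ighd, Ighg1, Ighg2b, Ighg2c, Ighg3, Igha and Ighe, the level was 808, 416 and 199 CPM in high replicates 1, 3 and 4, against 561, 717 and 1299 CPM in low replicates 1, 2 and 5, and the groups overlapped. Per 100 constant region counts there were 16.3, 17.1 and 13.4 Ighv counts in the high libraries, against 52.0, 37.2 and 26.3 in the low libraries. The mean was 15.6 ± 1.98 in the high group, against 38.5 ± 12.9 in the low group (SD, n = 3 each), -1.30 on the log2 scale and without overlap. Within the Inha-expressing libraries the ratio was 13.4 in the high library, against 52.0 and 26.3 in the low ones, and within the other set 16.3 and 17.1 in the high libraries, against 37.2 in the low one.

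How far the ratio separated the groups depended on Ighm. With Ighm left out, there were 17.5, 39.3 and 20.1 Ighv counts per 100 in high replicates 1, 3 and 4, against 55.0, 39.4 and 27.3 in low replicates 1, 2 and 5, and the groups overlapped (-0.66 on the log2 scale). Per 100 counts of Jchain, the joining chain of polymeric IgA and IgM, there were 38.0, 63.7 and 28.0 in the high libraries, against 99.9, 77.0 and 67.2 in the low libraries. Per 100 counts of Igkc, the kappa light chain constant region, there were 36.3, 52.8 and 36.3 in the high libraries, against 131.6, 97.8 and 77.6 in the low libraries. Against Jchain and Igkc the groups did not overlap. The kappa variable segments, Igkv, behaved otherwise, with 83.5, 79.3 and 94.1 counts per 100 of Igkc in the high libraries, against 90.1, 86.1 and 91.8 in the low libraries, which overlapped.

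Of the 8 constant regions 7 were tested and 0 passed by edgeR, voom or DESeq2. By edgeR 1 (Ighm) was at an unadjusted p under 0.05, against 14.4% of tested genes. Ighm was at 56.4, 235 and 66.8 CPM in high replicates 1, 3 and 4, against 31.5, 38.9 and 48.4 CPM in low replicates 1, 2 and 5, higher in every high library (log2 fold change 1.59, SE 0.57, edgeR adjusted p = 0.309). Igha, with the largest summed count of the 8 in most libraries, was at 554, 105 and 115 CPM in the high libraries, against 439, 514 and 1149 CPM in the low libraries, which overlapped (-1.44, SE 0.76, edgeR adjusted p = 0.442). Single libraries moved both values, Ighm to 0.63 without high replicate 3, and Igha to -2.69 without high replicate 1 and -0.89 without low replicate 5. With any library left out the value of Ighm stayed above 0, whereas the summed Ighv level was lower in the high group.

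The groups overlapped for each of the IgG regions and for Ighd. The log2 fold change was 0.36 for Ighg1, -0.15 for Ighg2b, -1.37 for Ighg2c, -1.07 for Ighg3 and -0.10 for Ighd, with edgeR adjusted p-values from 0.436 to 0.955, and Ighe was below the filter. Jchain was at 347, 112 and 94.9 CPM in the high libraries, against 292, 347 and 508 CPM in the low libraries (-1.05, SE 0.55, edgeR adjusted p = 0.436). Igkc was at 363, 135 and 73.0 CPM in the high libraries, against 222, 273 and 440 CPM in the low libraries (-0.71, SE 0.60, edgeR adjusted p = 0.636). High replicate 1 was within the low range for both, and without it the Jchain value was -1.91. Without low replicate 2 the Ighg2c value was -0.51, and without low replicate 5 the Ighg3 value was -0.47.

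The summed level of the listed plasma cell genes was lower in every high library, although most of the genes overlapped between groups singly. The summed level of B cell genes overlapped between groups. Of 14 plasma cell genes 13 were tested, and 0 passed by edgeR's adjusted p or by voom. DESeq2 called 3 (Fkbp11, Creld2 and Sec11c), all lower in the high group, against 4.3% of genes. At an unadjusted p under 0.05 edgeR found 4 lower, against 7.82% of tested genes. Of the 13 fold changes 10 were negative, against 44.7% of tested genes. Their summed level was 922 to 1110 CPM in the high libraries, against 1265 to 1584 CPM in the low libraries. Xbp1, the transcription factor of the secretory program, was at 340 ± 53.9 CPM in the high group, against 381 ± 55.6 CPM in the low group (log2 fold change -0.16, SE 0.25, edgeR adjusted p = 0.803). Txndc5, a disulfide isomerase of the endoplasmic reticulum, was at 228 ± 46.9 CPM in the high group, against 341 ± 21.3 CPM in the low group (-0.58, SE 0.24, edgeR adjusted p = 0.343; SD, n = 3 each). Every high library lay below every low library for Fkbp11, Creld2, Sec11c and Txndc5, against 9.85% of genes with a count sum of at least 15. The groups overlapped for the other 9 tested genes. Among these, log2 fold changes were -0.02 for the surface marker Sdc1, 0.46 for the transcription factor Prdm1, 0.26 for Slamf7 and 0.09 for Pou2af1. They were -0.74 for Irf4, -0.46 for Mzb1, -0.44 for Derl3 and -0.28 for Edem1. Secretory genes such as Xbp1 and Txndc5 are also expressed by other secreting cells. They weigh more in the sum than Prdm1, Irf4, Mzb1, Slamf7 and Pou2af1, for each of which the groups overlapped.

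Of 12 B cell genes 10 were tested and 0 passed by edgeR, voom or DESeq2. In edgeR 1 (Cd22) was at an unadjusted p under 0.05, against 14.4% of tested genes. Their summed level was 15.6 to 26.0 CPM in the high libraries, against 14.1 to 24.5 CPM in the low libraries, and none of the 12 was at 0 in all libraries. Cd22, a B cell inhibitory receptor, was at 5.68 ± 3.49 CPM in the high group, against 2.01 ± 0.329 CPM in the low group (log2 fold change 1.49, SE 0.55, edgeR adjusted p = 0.314). Cd79b, a chain of the B cell receptor complex, was at 2.20 ± 0.588 CPM in the high group, against 3.64 ± 0.451 CPM in the low group (-0.72, SE 0.39, edgeR adjusted p = 0.445; SD, n = 3 each). Every high library lay above every low library for Cd22 and below every low library for Cd79b. Each is 1 of 12 genes, near the shares over all genes with a count sum of at least 15, 8.29% higher and 9.85% lower.

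The levels of other tissue markers varied between libraries. Summed adipocyte markers were at 1925 to 21291 CPM in the high libraries, against 207 to 2731 CPM in the low libraries, stratified epithelium markers at 89.6 to 443 CPM in the high libraries, against 2.85 to 14.2 CPM in the low libraries, and granulosa markers at 71.1 to 426 CPM in the high libraries, against 652 to 1074 CPM in the low libraries. Pigr, the receptor that carries polymeric IgA across epithelia, was at 70.9, 58.2 and 455 CPM in high replicates 1, 3 and 4, against 1448, 882 and 278 CPM in low replicates 1, 2 and 5, with edgeR's log2 fold change at -2.16 (SE 0.98, adjusted p = 0.377). The groups overlapped for the adipocyte sum and not for the stratified epithelium sum. Among granulosa genes Inhbb, a subunit of activin and inhibin, was at 47.0, 60.8 and 128 CPM in the high libraries, against 545, 629 and 888 CPM in the low libraries, and the groups overlapped for each of the other 5. By edgeR's adjusted p, 0 of 6 adipocyte, 4 stratified epithelium and 6 granulosa genes passed. At an unadjusted p under 0.05 edgeR found 1, 4 and 1, against 14.4% of tested genes. DESeq2 called 1, 3 and 1, against 6.56% of genes. T cell markers were at 14.4 to 25.7 CPM in the high libraries, against 12.8 to 26.7 CPM in the low libraries. The part of these tissue differences in the Ighv levels was not tested. Rag1 and Dntt, which act in the first assembly of heavy chain genes, were at or near 0 in all 6 libraries, at no more than 0.151 and 0.160 CPM. Rag2, the partner of Rag1, had 18, 7 and 32 counts in high replicates 1, 3 and 4, against 16, 21 and 17 in low replicates 1, 2 and 5, which overlapped.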

How the data were processed

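The labels' litter size put 6 ovarian samples into groups, and their titles gave replicate numbers. The deposited table holds a value per gene and sample, used unchanged and read as kallisto's estimated counts. They are whole numbers, and rounding by the submitters was assumed, since no source states it. Per the submitters' processing notes the tools were Trim Galore, kallisto and DESeq2 with GRCm38, and versions are not given in the sources used here. The annotation release and kallisto's word length are not given in the sources used here. Since kallisto divides reads among similar transcripts, counts of near-identical segments are uncertain. Symbols were available for 35869 of 36727 genes. Gene types, coordinates on GRCm38 and sequences came from GENCODE M21, and all 94 members matched it. A count of 31-base words, aligned identity (Biopython 1.88) and the printed sequences describe that reference.

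The filter was filterByExpr (count 10, total 15). After TMM normalization, high minus low was tested with edgeR 4.0.16 (R 4.3.3) by quasi-likelihood, with Benjamini-Hochberg adjustment over every tested gene and 0.05 as the threshold. No covariate was fitted. The common dispersion was 0.219. Since the filter can drop members through low counts in a group, all 94 were also fitted with a count sum of at least 15 as the filter. The script was tested on simulated data. Alternatives were DESeq2 1.42.0, voom of limma 3.58.1, the edgeR likelihood ratio test, robust dispersion, RLE, upper-quartile and library-size scaling, other filters, other members and each library left out. Totals of 17620903 to 24758222 counts per library set the precision, and counting intervals cover counting error only. Python 3.11.15, numpy 2.4.6, pandas 2.3.3, scipy 1.17.1 and matplotlib 3.10.9 were used.

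The members, marker lists and named genes were chosen with earlier results of these data known. The named segments were every member that passed, the 12 of largest summed count, among tested members without overlap between groups the 5 of smallest p in each direction (none higher), the 3 on each side of the count limit, the neighbours of Ighv1-9 and its 3 closest relatives. Constant regions and Jchain were always named, and 2 genes of largest mean CPM from the plasma and B cell lists. Igkc and the kappa segments, Ighv7-2, the Ighv11 segments, the segments leading a library, those least distinct and those at 0 in a group were named after their values were seen, as were the further genes of the plasma cell, granulosa and recombination lists.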

Additional observations from a re-analysis of the deposited data

How the results depend on the processing

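No paired analysis was possible because high (1, 3, 4) and low (1, 2, 5) numbers coincide only at 1. The number of genes called was 1026 with DESeq2, 3 with voom, 631 with the likelihood ratio test and 2 with library-size scaling alone, and 0 to 1 with a library left out. The number of Ighv segments called was 16 with DESeq2, 15 with the likelihood ratio test and 0 with any library left out, where edgeR found 22 to 38 of 67 to 79 tested at an unadjusted p under 0.05, against 7.27 to 16.9% of all genes. Leaving out a library gave a summed Ighv level of -2.62 (without high replicate 1, 6.14-fold) to -1.56 on the log2 scale, a difference in effective number of -13.6 to -8.44 segments, a ratio to constant regions of -1.52 to -1.03 on the log2 scale and a difference in nearest-stretch share of 8.45 to 12.7 points. Chosen after the data were seen, the denominators without Ighm (-0.66) and of Jchain (-0.91) gave smaller ratios than all constant regions, and the share difference was 5.63 points without Ighv3-2 and 4.85 points without pseudogenes. Segments below all low libraries numbered 35 of 73 with a count sum of at least 50, against 10.6% of genes, and 40 to 53 of 94 with a library left out, against 12 to 16.5% of genes. With only the 3 Inha-expressing libraries, also chosen afterwards, the summed level was -3.58 on the log2 scale and the effective number -17.8 segments. In these and in the 3 Inha-low libraries, with a single library in an arm, edgeR called 0 genes, with 43 and 20 of 79 Ighv segments at an unadjusted p under 0.05, against 9.81 and 5.66% of genes. The sign turned for Ighv3-2 (-0.52 to 6.80 with a library left out, -1.22 in the Inha-expressing libraries), Ighv1-4 (-2.32 to 1.69, and 1.27 in the Inha-low 3), Ighv1-77 (-0.43 to 0.64, and -1.37 and -0.014 in the 2 sets), Ighd (-0.78 to 0.21, and 0.34 in the Inha-low 3), Ighg1 (-1.08 to 0.88, -0.59 with voom, and -3.13 in the Inha-expressing libraries), Ighg2b (-1.23 to 0.35) and Ighv2-9 (1.63 in the Inha-low 3). The cause was not tested. Over 24 single genes and 426 alternatives, 386 kept direction and side of the threshold, 8 lost the call, 12 gained it and 20 reversed in sign. The Ighv totals of 528 to 2579 counts in the high libraries limit the detection of rare segments there.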

Other observations

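Some segments were present in all or most high libraries and in low replicate 5 and at or near 0 in low replicates 1 and 2. Ighv4-2, annotated as a pseudogene, had 35, 2 and 21 counts in high replicates 1, 3 and 4, against 0, 0 and 39 counts in low replicates 1, 2 and 5. Ighv8-11 had 16, 5 and 5 counts in the high libraries, against 0, 3 and 20 in the low libraries. Ighv1-83, also annotated as a pseudogene, had 10, 1 and 0 counts in the high libraries, against 0, 0 and 5 in the low libraries. The pseudogene Ighv3-2, given above, had the same order. These segments were picked after their values were seen, and their groups overlap.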
